A study of Mus musculus with 12 samples.

Results

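The genes described here were 7 members of the epithelial enzyme systems that make hydrogen peroxide, superoxide and nitric oxide: Duox1, Duox2, Duoxa1, Duoxa2, Nox1, Cyba and Nos2. They were found by matching the Ensembl identifiers of the count data to gene symbols, and each of the 7 matched 1 of the 54838 genes counted. All 7 were also among the 15938 genes that passed the filter on low counts. The counts came from bulk RNA-seq of the whole ileum, the last segment of the small intestine, of C57BL/6J mice, with 3 mice in each of 4 groups. In the water + PBS group, mice drank normal water and were injected with PBS, the vehicle. In the water + Dex group, mice drank normal water and were injected with 200 µg of dexamethasone (Dex), a synthetic glucocorticoid. In the ZnSO4 + PBS group, mice drank water with 25 mM ZnSO4 and were injected with PBS. In the ZnSO4 + Dex group, mice received both treatments. Drinking lasted 7 days, and the ileum was taken 2 h after the injection in every group. The labels name no transgene or deletion in any group and give no age, and the study's methods describe its purchased C57BL/6J mice as female adults in specific pathogen-free housing. The question that the design addresses is what zinc and Dex, each alone or together, change in the ileum.

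As background, DUOX1 and DUOX2 are NADPH oxidases of the plasma membrane that release hydrogen peroxide outside the cell, and in the gut DUOX2 does this at the luminal side of the epithelium. Each needs a partner, DUOXA1 or DUOXA2, to leave the endoplasmic reticulum and become active. NOX1 makes superoxide and is best known from the epithelium of the colon. CYBA, also called p22phox, is the membrane subunit that NOX1, NOX2, NOX3 and NOX4 share and that the dual oxidases do not need. NOS2 is the inducible nitric oxide synthase, which makes nitric oxide from arginine. In the ileum, Duox2, Duoxa2 and Nos2 are known as genes that microbes and cytokines such as IL-17, IL-22 and interferon-gamma induce.

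The 4 dual oxidase genes lay in 1 locus of 68726 bases on mouse chromosome 2 (GRCm38, chr2:122279247-122347972). Duox2 (ENSMUSG00000068452, chr2:122279247-122298449, minus strand) and Duoxa2 (ENSMUSG00000027225, chr2:122298900-122302885, plus strand) stood head to head, with their annotated starts 451 bases apart. Duoxa1 (ENSMUSG00000027224, chr2:122302191-122313730, minus strand) and Duox1 (ENSMUSG00000033268, chr2:122315672-122347972, plus strand) formed a second head-to-head pair, with starts 1942 bases apart. The 3′ ends of Duoxa2 and Duoxa1 ran into each other on opposite strands, and 682 exonic bases were shared, 42.8% of the exons of Duoxa2 and 17.1% of those of Duoxa1. The strand setting of the read counting is not given in the sources used here, and without strand the reads of these shared bases cannot be told apart. Of the 31-base stretches of Duox1, 13.4% also occurred in Duox2, so a few reads of the one could have been lost or moved to the other. Outside this locus were Nox1 (ENSMUSG00000031257, chrX:134086421-134221956, minus strand), Cyba (ENSMUSG00000006519, chr8:122424776-122432930, minus strand) and Nos2 (ENSMUSG00000020826, chr11:78920787-78960254, plus strand), all of them protein-coding genes.

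**Figure D1:**
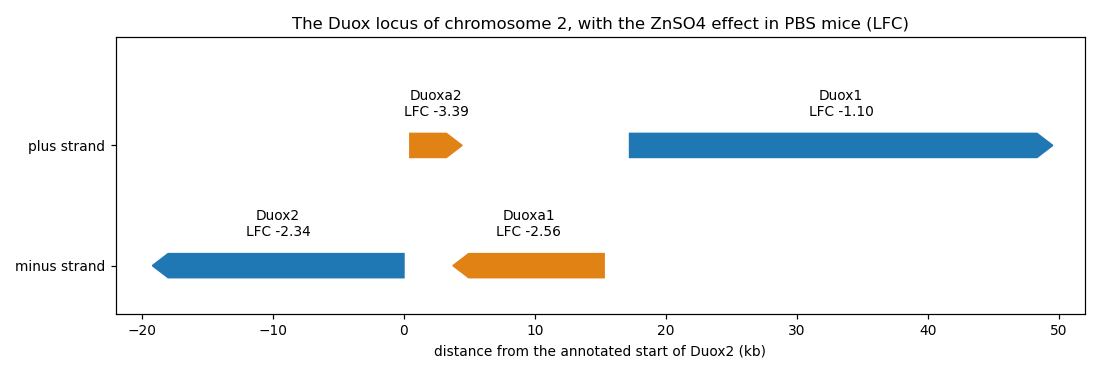
Map of the 4 dual oxidase genes, drawn to scale along the plus strand, with the distance from the annotated start of Duox2 in kb on the x axis and the strand on the y axis. Arrows point from the start to the end of each gene (blue for oxidases, orange for maturation factors), and the numbers are log2 fold changes (LFC) of ZnSO4 + PBS against water + PBS, from -3.39 for Duoxa2 to -1.10 for Duox1, the only one of the 4 that did not pass the test.

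The 250 bases before the RefSeq start of Duoxa2 are shown because they lie between the starts of Duox2 and Duoxa2, the pair with the highest level in the locus, and the 250 bases before the RefSeq start of Nox1 are shown because Nox1 differed from that pair in its pattern over the groups. Both were read 5′ to 3′ on the strand of the gene from RefSeq's promoter windows of GRCm38.p6 (Duoxa2 at chr2:122298650-122298899 on the plus strand, Nox1 at chrX:134111855-134112104 on the minus strand). The RefSeq start of Nox1, chrX:134111854, lies inside the gene body given above, whose annotated start is chrX:134221956. RefSeq windows matched 6 of the 7 members, and Nos2 had no entry. Capitals mark the AP-1 letters TGANTCA in Duoxa2, 168 bases before the start, and the match to the NF-kB site in Nox1, 91 bases before the start.
Duoxa2: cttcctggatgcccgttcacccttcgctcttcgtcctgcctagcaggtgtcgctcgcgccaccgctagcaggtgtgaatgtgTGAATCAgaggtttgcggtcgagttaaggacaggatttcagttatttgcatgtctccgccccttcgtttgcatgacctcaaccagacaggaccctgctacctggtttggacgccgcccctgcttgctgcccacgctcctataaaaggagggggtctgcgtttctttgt
Nox1: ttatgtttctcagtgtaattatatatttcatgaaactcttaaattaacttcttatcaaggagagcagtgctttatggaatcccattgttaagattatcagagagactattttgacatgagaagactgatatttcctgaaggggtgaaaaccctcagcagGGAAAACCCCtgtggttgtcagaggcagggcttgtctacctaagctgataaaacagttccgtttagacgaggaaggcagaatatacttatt

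Windows from 250 bases before to 50 bases after each start were searched on both strands for 7 motifs. AP-1 occurred in 7.81% and the NF-kB site in 8.46% of the 32851 windows of 27025 genes, so that a match in 1 window is a description only. The letters GAAANNGAA of an interferon regulatory factor half-pair (8.56% of all windows), TTCNNNGAA of a gamma-activated site (8.30%) and ACANNNTGT of a glucocorticoid response element core (6.85%) were in none of the 6 windows of the members. The metal response element core TGCGCNC (15.4% of all windows) was in the window of Duox2 at 2 positions. These lie before and after the RefSeq start of Duox2, chr2:122298227. Both positions and that start lie inside the gene body of Duox2 given above. The core TGCACNC (12.6%) was in the window of Nox1, after the start and outside the stretch shown. Duox1, Duoxa1 and Cyba held none of the 7 motifs in these windows.

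Among 12 libraries, between 10760132 and 11827487 reads per library were counted on genes, with a median of 11388606. Counts scaled to a common library size by TMM are called normalised counts below, and group values are means ± SD of 3 mice. Levels of different genes are compared only as FPKM, which also divides by the length of the exons. As a check of the labels, the Dex target Fkbp5 lay between 949.95 and 1221.93 normalised counts in the 6 PBS mice and between 10263 and 12396 in the 6 Dex mice, and the zinc-induced metallothionein gene Mt1 lay between 490.3 and 1376 in the 6 water mice and between 11971 and 27940.0 in the 6 ZnSO4 mice. Markers of the distal ileal enterocyte (Fabp6, Slc10a2, Slc51a and Slc51b) summed to 5348 to 10307 CPM per library. The 4 colon markers Car1, Aqp4, Aqp8 and Hoxb13 summed to 18.6 to 42.8 CPM per library. Of these, Hoxb13 had no reads in any library, and Aqp4 had 384 ± 91.3 normalised counts in water + PBS mice. Car1 had no reads in water mice and 6.17 ± 9.91 normalised counts in ZnSO4 + PBS mice. Markers of B cells differed widely between mice of the same group, with sums of 25.8 to 507 CPM in water + PBS mice and 10.3 to 382 CPM in ZnSO4 + PBS mice.

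In water + PBS mice, Nos2, the Duox2 pair and Cyba were the most abundant members. The FPKM was 92.6 ± 15.9 for Nos2, 75.0 ± 6.87 for Duox2, 62.7 ± 7.94 for Duoxa2 and 59.8 ± 10.6 for Cyba. Neighbours in this order differed by less than the sum of their SDs from Duox2 to Cyba, and Nos2 and Duox2 likewise. A wide gap followed, with Nox1 at 2.42 ± 0.50, Duoxa1 at 0.86 ± 0.15 and Duox1 at 0.15 ± 0.061. Duox2 was thus 604 ± 318 times as abundant as Duox1 per length, and Duoxa2 was 74.7 ± 18.7 times as abundant as Duoxa1. Duox1 rested on 3 to 13 reads per library in all 12 libraries and Duoxa1 on 5 to 48.

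Most of the 7 genes were lower in mice that drank ZnSO4. A gene was called at a Benjamini-Hochberg adjusted p under 0.05 in edgeR's quasi-likelihood test over all 15938 genes and an LFC above 0.8 in size. By ZnSO4 in PBS mice, 4 of the 7 members were called, against 1.7% of all genes tested: Duox2, Duoxa2, Duoxa1 and Nos2, all of them lower. By ZnSO4 in Dex mice, 3 were called, against 1.9% of all genes: Duox2, Duoxa2 and Nos2, again lower. Dex lowered 2 members in water mice (Duoxa2 and Duoxa1, against 4.42% of all genes called) and 3 in ZnSO4 mice (Duox2, Duoxa2 and Nox1, against 5.81%). With both treatments against neither, 5 members were called and lower, all but Duox1 and Cyba, against 9.66% of all genes. The comparisons of ZnSO4, Dex and their combination with water + PBS share the same 3 control mice. Because the members were chosen with earlier results of these data known, their counts beside the shares of all genes are a description only. In RNA of the whole ileum, fewer cells of a type and less RNA per cell cannot be told apart.

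**Figure D2:**
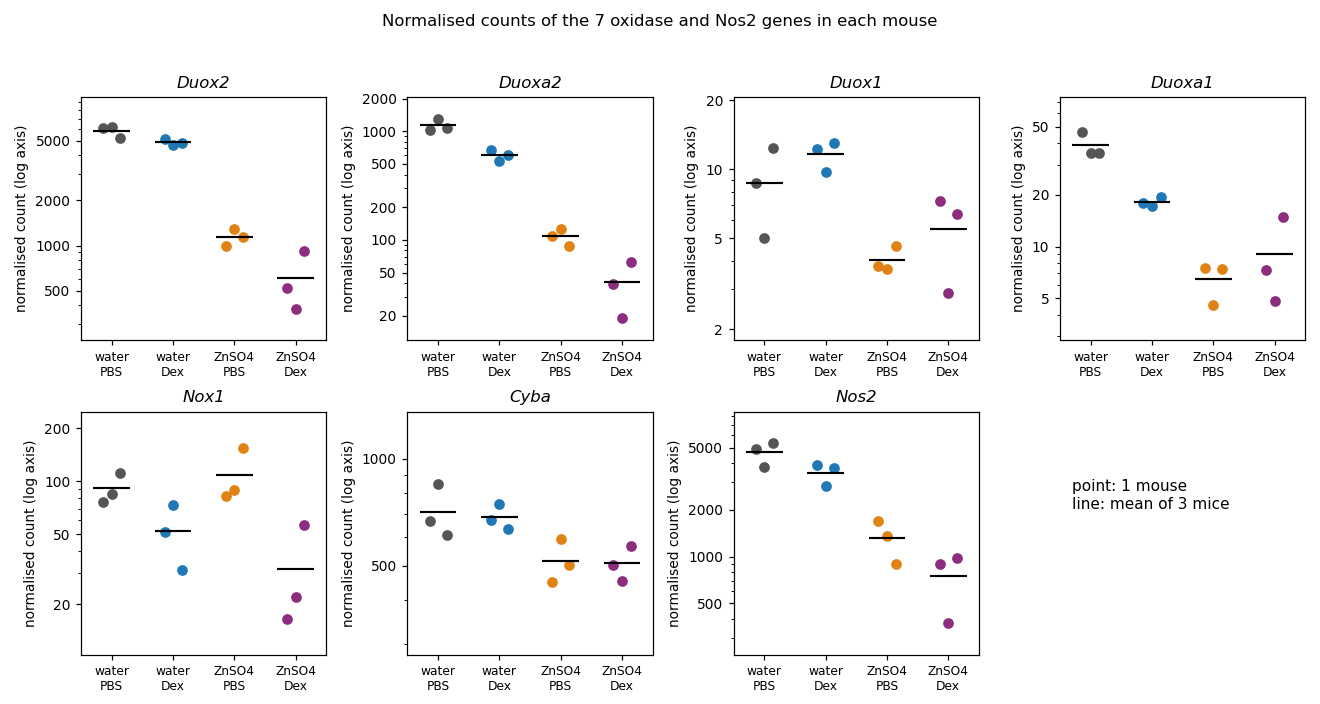
Normalised counts (y axes, log scale with its own range for each gene) of the 7 genes in the 12 mice, by group on the x axis. Each point is 1 mouse and each line the mean of 3 mice. For Duox2, Duoxa2 and Nos2, the 6 ZnSO4 mice lie below all 6 water mice. For Nox1 the ZnSO4 + Dex group has the lowest mean, 31.8 ± 21.7 normalised counts, and only its mouse 3 lies within the range of the water + Dex mice.

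Duox2, the peroxide-releasing oxidase of the pair, had 6034, 6123 and 5165 normalised counts in the water + PBS mice and 986, 1284 and 1141 in the ZnSO4 + PBS mice. All ZnSO4 mice were below all water mice, with a narrow spread in both groups. Duox2 fell 5.08-fold by ZnSO4, an LFC of -2.34 (SE 0.25, adjusted p = 0.000647). In Dex mice, Duox2 had 5136, 4676 and 4820.4 normalised counts with water and 518, 377 and 926 with ZnSO4. Again the groups did not overlap, and mouse 3 of the ZnSO4 + Dex group was the highest of its group. The decrease by ZnSO4 was 8.04-fold in Dex mice (LFC -3.01, SE 0.26, adjusted p = 0.000155). In water mice the 3 Dex values lay just under the 3 PBS values, with an LFC of -0.24 (95% interval -0.77 to 0.28, adjusted p = 0.602). In ZnSO4 mice Duox2 fell by 0.91 on the log2 scale by Dex and was called (SE 0.25, adjusted p = 0.0313). This last call was lost without ZnSO4 + PBS mouse 2 or 3 or without ZnSO4 + Dex mouse 1 or 2, with adjusted p-values of 0.0969, 0.0716, 0.117 and 0.0639, and in a fit of only these 2 groups (adjusted p = 0.112). ZnSO4 + Dex mouse 2 stood apart in its enterocyte markers, which summed to 6308 CPM against 9153 to 15497 CPM in the other 11 libraries, and the part of this in its low Duox2 value was not tested. Both ZnSO4 calls of Duox2 held in all 12 fits that left out 1 library each.

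Duoxa2, the maturation factor of DUOX2, moved further than its partner. Its normalised counts were 1033, 1300.4 and 1075 in water + PBS mice, 672, 535 and 606 in water + Dex mice, 109, 126 and 88.0 in ZnSO4 + PBS mice, and 39.4, 19.2 and 63.0 in ZnSO4 + Dex mice. No 2 of the 4 groups overlapped, and the order of the groups ran from neither treatment over Dex and ZnSO4 to both. ZnSO4 lowered Duoxa2 10.5-fold in PBS mice (LFC -3.39, SE 0.27, adjusted p = 0.000119) and 15.0-fold in Dex mice (LFC -3.91, SE 0.29, adjusted p = 5.72e-05). Dex lowered it 1.88-fold in water mice (LFC -0.91, SE 0.24, adjusted p = 0.0337) and 2.68-fold in ZnSO4 mice (LFC -1.42, SE 0.30, adjusted p = 0.00779). With both treatments the level was 28.2-fold lower than with neither (LFC -4.82, SE 0.30, adjusted p = 1.43e-06). The ZnSO4 calls and the Dex call in ZnSO4 mice held without any 1 library, but in a fit of only the groups compared the latter was lost (adjusted p = 0.0593). The Dex call in water mice was less firm: without any of the 6 water mice or without ZnSO4 + Dex mouse 1, its adjusted p lay between 0.0519 and 0.124.

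Because Duoxa2 changed more than Duox2, the ratio of their levels differed between the groups. The ratio of Duox2 FPKM to Duoxa2 FPKM was 1.37, 1.11 and 1.13 in water + PBS mice and 1.80, 2.06 and 1.87 in water + Dex mice. In ZnSO4 + PBS mice it was 2.12, 2.39 and 3.05, and in ZnSO4 + Dex mice 3.09, 4.61 and 3.46. The means were 1.204 ± 0.15, 1.91 ± 0.13, 2.52 ± 0.48 and 3.72 ± 0.79, and no 2 of these groups overlapped. The ratio was looked at after the changes of both genes were known and was not tested. The 682 exonic bases that Duoxa2 shares with Duoxa1 enter its FPKM.

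**Figure D3:**
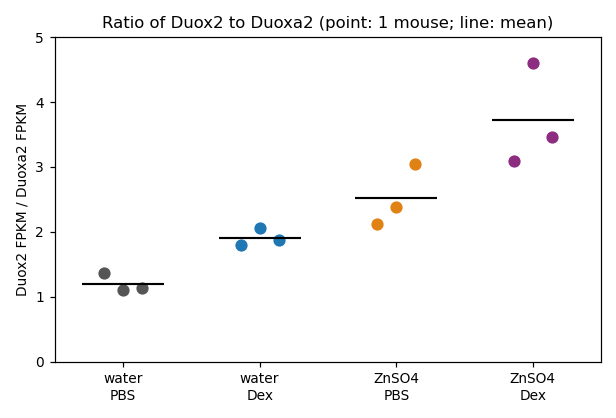
Ratio of Duox2 FPKM to Duoxa2 FPKM (y axis, linear from 0) in the 12 mice, by group on the x axis, with 1 point per mouse and a line at the mean of 3 mice. The mean ratio stands at 1.204 in water + PBS mice and at 3.72 in ZnSO4 + Dex mice.

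The second pair, Duox1 and its maturation factor Duoxa1, was expressed at a far lower level. Duoxa1 had 46.7, 35.1 and 35.2 normalised counts in water + PBS mice, 17.8, 17.3 and 19.5 in water + Dex mice, 7.54, 4.58 and 7.41 in ZnSO4 + PBS mice, and 7.26, 4.80 and 15.0 in ZnSO4 + Dex mice. The water + PBS mice stood above all others, and both ZnSO4 groups overlapped. Of the exonic bases of Duoxa1, 17.1% overlap the far more abundant Duoxa2 on the opposite strand. How far reads of Duoxa2 enter the counts of Duoxa1 was not tested. ZnSO4 lowered Duoxa1 5.90-fold in PBS mice (LFC -2.56, SE 0.35, adjusted p = 0.00273), in all 12 fits without 1 library. In Dex mice the LFC was -1.02 (SE 0.36, adjusted p = 0.146), and only without ZnSO4 + Dex mouse 3, the highest of its group, did it pass (LFC -1.58, adjusted p = 0.0291). Dex lowered Duoxa1 in water mice (LFC -1.09, SE 0.31, adjusted p = 0.0484). This call stood close to the threshold and was kept in 2 of the 12 fits, those without ZnSO4 + Dex mouse 2 or mouse 3. Without any 1 of the other 10 libraries it was lost, with adjusted p-values of 0.0522 to 0.155, and likewise with DESeq2 (adjusted p = 0.0690), with RLE factors and with no filter on low counts.

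Duox1 had 8.76, 5.02 and 12.4 normalised counts in water + PBS mice, 12.3, 9.72 and 13.0 in water + Dex mice, 3.77, 3.66 and 4.63 in ZnSO4 + PBS mice, and 7.26, 2.88 and 6.41 in ZnSO4 + Dex mice. The ZnSO4 + PBS mice lay below the water + PBS mice and the ZnSO4 + Dex mice below the water + Dex mice. The LFC by ZnSO4 was -1.10 in PBS mice (95% interval -2.04 to -0.15, adjusted p = 0.183) and -1.07 in Dex mice (95% interval -1.97 to -0.18, adjusted p = 0.175), and neither passed the test. With 3 to 13 reads per library, these intervals are wide. Of the 31-base stretches of Duox1, 13.4% also occur in the far more abundant Duox2. How far reads of Duox2 enter the counts of Duox1 was not tested.

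Nox1 followed another pattern, with low values in Dex mice. It had 75.9, 85.3 and 112 normalised counts in water + PBS mice and 82.0, 88.8 and 156 in ZnSO4 + PBS mice. These groups overlapped, and the LFC by ZnSO4 was 0.26 (95% interval -0.64 to 1.15, adjusted p = 0.774). With Dex it had 51.3, 73.4 and 31.3 normalised counts in water mice and 16.6, 22.1 and 56.6 in ZnSO4 mice. All 6 Dex mice were below the lowest PBS mouse of the same drinking water. The decrease by Dex passed in ZnSO4 mice (3.43-fold, LFC -1.78, SE 0.44, adjusted p = 0.0192) and not in water mice (LFC -0.81, 95% interval -1.74 to 0.12, adjusted p = 0.296). These 2 effects of Dex were not shown to differ (interaction LFC -0.97, SE 0.61, adjusted p = 0.952). Without ZnSO4 + PBS mouse 3 or ZnSO4 + Dex mouse 1 or 2, the call in ZnSO4 mice was lost, with adjusted p-values of 0.0725, 0.0776 and 0.0733, as it was in a fit of only these 2 groups (adjusted p = 0.0548). Without ZnSO4 + Dex mouse 3, the highest of its group, the LFC was -2.48. Of the exonic bases of Nox1, 12.1% overlap Cstf2 on the opposite strand.

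Cyba, the membrane subunit of the NOX enzymes, varied least. Its normalised counts were 665, 848 and 609 in water + PBS mice, 671, 744 and 635 in water + Dex mice, 449, 593 and 502 in ZnSO4 + PBS mice, and 501, 453 and 568 in ZnSO4 + Dex mice. Every ZnSO4 mouse was below every water mouse, by a small margin. The LFC by ZnSO4 was -0.46 in PBS mice (adjusted p = 0.0891) and -0.43 in Dex mice (adjusted p = 0.115). With both treatments against neither it was -0.48 (SE 0.14, adjusted p = 0.0287), which passed the threshold on p and stayed under the cut-off on size. Dex alone left Cyba at an LFC of -0.049 in water mice (95% interval -0.35 to 0.26).

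Nos2, the inducible nitric oxide synthase, moved with the Duox2 pair. It had 4870, 3764 and 5314 normalised counts in water + PBS mice and 1693, 1348 and 900.3 in ZnSO4 + PBS mice. The groups were far apart, though mice of 1 group differed from each other by more than for Duox2. ZnSO4 lowered Nos2 3.54-fold in PBS mice (LFC -1.82, SE 0.32, adjusted p = 0.0101). In Dex mice it had 3836, 2824 and 3696 normalised counts with water and 897, 376 and 984 with ZnSO4. The groups did not overlap, and mouse 2 of the ZnSO4 + Dex group, the lowest for Duox2 and Duoxa2 too, was the lowest. The decrease by ZnSO4 in Dex mice was 4.59-fold (LFC -2.20, SE 0.33, adjusted p = 0.00381). Both calls held in all 12 fits without 1 library, with a highest adjusted p of 0.0466 in PBS mice. By Dex, the LFC was -0.43 in water mice (95% interval -1.11 to 0.25, adjusted p = 0.461) and -0.81 in ZnSO4 mice (95% interval -1.50 to -0.11, adjusted p = 0.129), and neither passed.

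**Figure D4:**
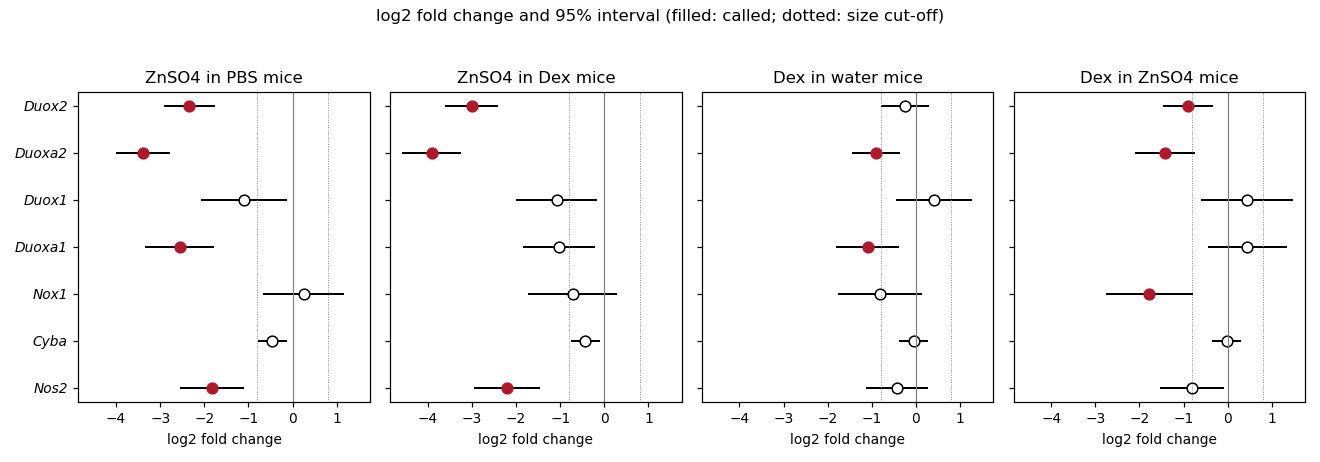
LFC (x axes, log2 scale) of the 7 genes (y axis) for ZnSO4 in PBS mice and in Dex mice and for Dex in water mice and in ZnSO4 mice. Points are estimates of edgeR's model, bars are 95% intervals, filled points passed the test and the size cut-off, and dotted lines stand at an LFC of 0.8 in either direction. Under ZnSO4 the points of Duoxa2 lie farthest left, at -3.39 and -3.91.

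With both treatments against neither, the decreases were an LFC of -3.25 for Duox2 (adjusted p = 1.03e-05), -2.11 for Duoxa1 (adjusted p = 0.00102), -2.63 for Nos2 (adjusted p = 0.000205) and -1.52 for Nox1 (adjusted p = 0.0280). The call of Nox1 was lost without water + PBS mouse 2 or 3 or without ZnSO4 + Dex mouse 1 or 2, with adjusted p-values of 0.0531, 0.0846, 0.101 and 0.0919, and without ZnSO4 + Dex mouse 3 its LFC was -2.23. Whether the effect of one treatment depended on the other was tested as an interaction. None of the 7 members was called in the interaction (0% of all genes called). The largest was that of Duoxa1, with an LFC difference of 1.54 (SE 0.51), where Dex had an LFC of -1.09 in water mice and 0.45 in ZnSO4 mice. Its p was 0.0113 before adjustment in edgeR's quasi-likelihood test and 0.952 after it. For Duox2 the interaction was -0.66 (95% interval -1.42 to 0.089), for Duoxa2 -0.51 (95% interval -1.35 to 0.32) and for Nos2 -0.38 (95% interval -1.35 to 0.60). These intervals leave room for effects that add on the log2 scale and for sizeable departures from that. In edgeR's interaction test 794 of all genes tested had a p under 0.05 before adjustment, and DESeq2 called 6 genes, none of them a member.

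ZnSO4 alone was also set against Dex alone, and 5 of the 7 members were called, against 7.32% of all genes. All 5 were lower with ZnSO4: Duoxa2 (LFC -2.48), Duox2 (LFC -2.10), Duox1 (LFC -1.51, adjusted p = 0.0295), Duoxa1 (LFC -1.47, adjusted p = 0.0182) and Nos2 (LFC -1.39). The values of Duox1 rest on few reads, and its call was lost without any 1 of the 6 mice compared, with adjusted p-values of 0.0547 to 0.10045, with no filter on low counts and with DESeq2 (adjusted p = 0.0969). That of Duoxa1 was lost without water + Dex mouse 3 (adjusted p = 0.0642) or ZnSO4 + PBS mouse 2 (adjusted p = 0.0680). Nox1 stood the other way, with an LFC of 1.06 (adjusted p = 0.112), and passed only without ZnSO4 + Dex mouse 3 (adjusted p = 0.0492).

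The other genes of the NADPH oxidase complexes were followed as a list. Of 12 further genes, 11 were tested, and by ZnSO4 in PBS mice, by ZnSO4 in Dex mice and by Dex in either water or ZnSO4 mice none was called by edgeR. Their LFCs by ZnSO4 in PBS mice lay between -0.71 and 0.52, beside a median of -0.013 over all genes tested. Noxo1 and Noxa1, the organiser and the activator of NOX1, had 12.0 ± 0.86 and 285 ± 43.4 normalised counts in water + PBS mice and 17.3 ± 4.07 and 224 ± 43.2 in ZnSO4 + PBS mice. Rac1, a small GTPase that NOX1 uses, had 4771 ± 76.3 and 4645 ± 332. The phagocyte oxidase genes Cybb, Ncf1 and Rac2 had 594 ± 300, 283 ± 172 and 772 ± 596 normalised counts in water + PBS mice, and mice within that group differed several-fold. Ncf4, another cytosolic subunit of that oxidase, fell with both treatments against neither, from 121 ± 75.5 to 40.5 ± 6.56 (LFC -1.58, adjusted p = 0.0458), the only 1 of the 11 called there, against 9.66% of all genes. Rac2 had an LFC of -1.72 in that comparison (adjusted p = 0.0747). B cell markers summed to 25.8 to 507 CPM and to 11.2 to 54.2 CPM in these 2 groups, with 0 of 6 called and none at 0. In the same comparison 6 of 7 T cell markers fell (summed levels of 188 to 267 and 83.2 to 111 CPM), as did both tested neutrophil markers, S100a9 (11.2 ± 10.6 to 0.64 ± 1.11 normalised counts) and Csf3r (36.3 ± 13.8 to 16.4 ± 2.51), while 0 of 7 macrophage markers were called. The part of these cells in the decrease of Ncf4 was not tested. Nox4 and Cybc1 had LFCs of 0.42 and -0.15 by ZnSO4 in PBS mice, Rac3 had 0.071, and Nox3 had no reads in any library. A count of 0 in a single library, taken alone, allows up to 3 expected reads there.

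Of 14 genes that supply or handle nitric oxide and arginine, all tested, none was called by ZnSO4 in PBS mice or in Dex mice (median LFC 0.0075 and -0.014), and 2 passed on p under the size cut-off. Gch1, whose enzyme starts the synthesis of the cofactor tetrahydrobiopterin, had 412 ± 33.8 normalised counts in water + PBS mice and 257 ± 45.7 in ZnSO4 + PBS mice (LFC -0.68, adjusted p = 0.0309), and its LFC by ZnSO4 in Dex mice was -0.77 (adjusted p = 0.0175). Slc7a1, a transporter of arginine, had an LFC of -0.50 in PBS mice (adjusted p = 0.00993) and -0.12 in Dex mice (adjusted p = 0.520). Gch1 fell with both treatments against neither (LFC -1.05, adjusted p = 0.000640). Dex raised Arg2, a mitochondrial arginase, from 363 ± 105 to 1116 ± 222 in water mice (LFC 1.62, adjusted p = 0.00195) and from 641 ± 145 to 1393 ± 380 in ZnSO4 mice (LFC 1.12). Slc7a2, a transporter of cationic amino acids such as arginine, rose by Dex from 55.4 ± 22.6 to 142 ± 32.4 in water mice (LFC 1.35, adjusted p = 0.00563) and from 49.8 ± 5.82 to 142 ± 11.3 in ZnSO4 mice (LFC 1.51). Gucy1a1, a subunit of the guanylate cyclase that senses nitric oxide, fell by Dex in ZnSO4 mice (LFC -0.85, adjusted p = 0.00578).

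Of 20 genes that remove or use superoxide and peroxide, 18 were tested and 2 were called by ZnSO4 in PBS mice, against 1.7% of all genes. Cat, which encodes catalase, rose from 1797 ± 57.7 to 3168 ± 308 normalised counts (LFC 0.82, adjusted p = 0.00154), and Gpx2, the glutathione peroxidase of the gut epithelium, fell from 6981 ± 1505 to 2980 ± 374 (LFC -1.23, adjusted p = 0.00115). In Dex mice, ZnSO4 lowered Gpx2 (LFC -0.93) and Prdx6, a peroxiredoxin (LFC -0.94). Dex raised Prdx6 in water mice from 2110 ± 260 to 9329 ± 330 (LFC 2.14, adjusted p = 2.09e-06) and in ZnSO4 mice (LFC 1.78). The superoxide dismutase genes Sod1, Sod2 and Sod3 had LFCs of 0.28, -0.023 and -0.13 by ZnSO4 in PBS mice, and none passed.

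Among 22 genes of the cytokine and microbial signals upstream of Nos2 and Duox2, 18 were tested. The shares of all genes called were 1.7% by ZnSO4 in PBS mice, 1.9% by ZnSO4 in Dex mice and 4.42% by Dex in water mice. By ZnSO4 in PBS mice, 2 fell: Irf1, an interferon-induced transcription factor, from 3069 ± 460 to 1758 ± 94.4 (LFC -0.80, adjusted p = 0.00148) and Nfkbiz, which encodes a nuclear regulator of NF-kB, from 1747 ± 121 to 736 ± 131 (LFC -1.25, adjusted p = 0.00542). By ZnSO4 in Dex mice, 0 of the 18 were called, with an LFC of -0.63 for Irf1 (adjusted p = 0.00546, under the size cut-off) and of -0.75 for Nfkbiz (adjusted p = 0.0533). By Dex in water mice, 3 fell: Il1b from 75.0 ± 26.9 to 5.10 ± 2.73 (LFC -3.85, adjusted p = 0.000164), Tnf from 39.5 ± 16.8 to 7.64 ± 4.33 (LFC -2.35, adjusted p = 0.0318) and Irf1 to 1358 ± 61.2 (LFC -1.18). The cytokine genes Il17a, Il17f, Il22 and Ifng were too low to be tested, with 9.83 ± 4.71, 3.62 ± 2.94, 3.91 ± 5.14 and 3.27 ± 2.45 normalised counts in water + PBS mice and 1.86 ± 0.028, 0.31 ± 0.53, 0.31 ± 0.53 and 1.84 ± 1.59 in ZnSO4 + PBS mice. Their receptor genes were well expressed, and Il17ra, Il17rc, Il22ra1, Ifngr1 and Ifngr2 had LFCs between -0.18 and 0.18 by ZnSO4 in PBS mice.

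Epithelial genes known to be induced by microbes fell with the Duox2 pair and Nos2 under ZnSO4. Of 12 such genes, all tested, 7 fell by ZnSO4 in PBS mice and 7 in Dex mice, against 1.7% and 1.9% of all genes called. In both cases they were Saa1, Saa2, Saa3, Reg3b, Reg3g, Fut2 and Ido1, with a median LFC of the list of -1.55 and -1.61. Saa1, a serum amyloid A gene, went from 3416 ± 1340 to 88.7 ± 61.0 normalised counts in PBS mice (LFC -5.26, adjusted p = 0.000456). Reg3g, an antibacterial lectin gene, went from 111063 ± 42683 to 12637 ± 3342 (LFC -3.14, adjusted p = 0.00141). Under Dex in water mice, by contrast, Lcn2 rose from 43.4 ± 15.7 to 1293 ± 108, the chemokine genes Cxcl1 and Cxcl5 fell (25.7 ± 19.8 to 0.36 ± 0.62 and 20.96 ± 10.6 to 1.08 ± 1.87 normalised counts), and none of those 7 genes was called.

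**Figure D5:**
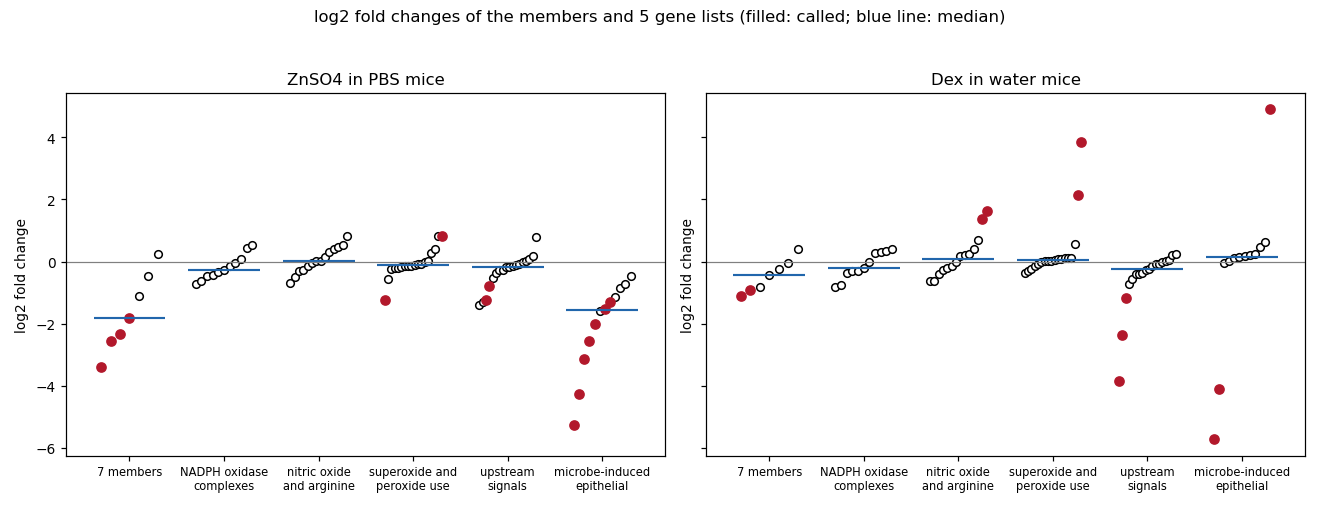
LFC (y axis, log2 scale) of the 7 members and of the tested genes of 5 lists (x axis) by ZnSO4 in PBS mice and by Dex in water mice. Each point is 1 gene, sorted within its list, filled points were called, and blue lines are medians. By ZnSO4 the members (4 of 7 called) and the microbe-induced epithelial genes (7 of 12 called) reach lowest.

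Markers of the cell types that can hold these enzymes were followed beside the members. No enterocyte marker (0 of 7) and no macrophage marker (0 of 7) was called by ZnSO4 in PBS mice or in Dex mice. Enterocyte markers summed to 9153 to 11711 CPM in water + PBS mice, between 12004 and 14302 in water + Dex mice, 11687 to 15497 in ZnSO4 + PBS mice and 6308 to 15099 in ZnSO4 + Dex mice. Macrophage markers summed to 371 to 690 CPM in water + PBS mice, between 396 and 498 in water + Dex mice, 317 to 504 in ZnSO4 + PBS mice and 365 to 403 in ZnSO4 + Dex mice, and none was at 0. Neutrophil markers were near the limit of detection, at 1.64 to 9.26 CPM in sum over all 12 libraries, and the 2 of 6 that were tested were not called by ZnSO4 in PBS mice or in Dex mice, though both fell with both treatments against neither. None of the 5 crypt, 6 Paneth cell, 6 smooth muscle or 6 B cell markers was called by ZnSO4 in either group, and of 4 plasma cell markers Mzb1 fell in Dex mice. T cell markers moved with ZnSO4: 3 of 7 fell in PBS mice (Cd8a, Gzma and Gzmb), against 1.7% of all genes called. In Dex mice 5 of these 7 markers fell, against 1.9%, and with both treatments against neither 6 of 7 fell, against 9.66%. Their summed level was 188 to 267 CPM in water + PBS mice, between 223 and 373 in water + Dex mice, 79.3 to 87.5 in ZnSO4 + PBS mice and 83.2 to 111 in ZnSO4 + Dex mice, with none at 0. Gzmb, a granzyme gene of cytotoxic lymphocytes, had 564 ± 188 normalised counts in water + PBS mice and 112 ± 29.8 in ZnSO4 + PBS mice (LFC -2.33, adjusted p = 0.00304). The part of these cells in the decreases of Duox2, Duoxa2 and Nos2 was not tested. Of the 7 goblet cell markers, only Muc2 was called by ZnSO4, and it rose in PBS mice (LFC 0.88, adjusted p = 0.0329) and in Dex mice (LFC 0.83). The goblet cell list summed to 13139.9 to 13335 CPM in water + PBS mice and 14576 to 17696 in ZnSO4 + PBS mice.

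The genes with the pattern most like that of a member were taken by Pearson's r of log2 CPM over the 12 libraries, among 14970 genes with a mean CPM of at least 1. These values are descriptions without a test, and the 12 points share 4 groups, so that any gene that follows the groups scores high. For Duox2 they were Smpdl3b (r = 0.992), its own partner Duoxa2 (r = 0.990), Cd38 (r = 0.977), AA467197 (r = 0.976) and Steap1 (r = 0.964). Smpdl3b had 655, 551, 187 and 125 normalised counts on average in water + PBS, water + Dex, ZnSO4 + PBS and ZnSO4 + Dex mice. For Nos2 they were Trim40 (r = 0.981), Prelid3b (r = 0.975), Duoxa2 (r = 0.974), Sec24c (r = 0.972) and Apaf1 (r = 0.970). For Nox1 they were Pkp3 (r = 0.934), Slc25a11 (r = 0.922), Pde6d (r = 0.919), Ptpn3 (r = 0.914) and Rps6ka4 (r = 0.912).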

How the data were processed

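Libraries of total ileum RNA from 12 mice were prepared with a stranded kit and sequenced single-end by the authors, who, per the study's methods and the submitters' processing notes, trimmed reads with Trimmomatic, mapped them to mm10 with HISAT2 2.0.4 and counted them per gene with featureCounts, leaving out multimapping reads. The deposited values are raw counts. The annotation release and strand setting are not given in the sources used here. Symbols, positions and lengths came from GENCODE M21 of GRCm38 (54723 of 54838 identifiers matched). With R 4.3.3 and edgeR 4.0.16, genes were filtered with filterByExpr (minimum count 10), counts were normalised by TMM, and 1 quasi-likelihood model of 4 group means was fitted. Calls needed a Benjamini-Hochberg adjusted p under 0.05 over all 15938 genes and an LFC above 0.8 in size, the study's cut-offs, with none on size for the interaction. With 3 mice against 3, an exact permutation test cannot go below p = 0.1. An LFC's SE was its size over the root of F. The procedure was tested on simulated data. Same-numbered mice did not deviate together (median r = -0.056 over 18 pairs, 3 above 0.1), so the numbers were not taken to pair mice. Libraries of a group differed by a chi-square of 7.84 to 43.5 per degree of freedom, so none was a copy of another.

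The 7 members, the gene lists and the markers were chosen with earlier results of these data known. Text names the members in every comparison, the genes of the lists that were called, the oxidase complex genes whatever their call (1 is not reported here), and the 5 genes most like Duox2, Nos2 and Nox1. Slc7a1, the Sod genes and the cytokine and receptor genes not called were named after their values were seen.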

Additional observations from a re-analysis of the deposited data

How the results depend on the processing

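Results were recomputed with DESeq2 1.42.0, other size factors (RLE, upper quartile), other filters, other cut-offs on size, a replicate block, a fit of 2 groups alone, and without each library. By ZnSO4 in PBS mice, 4 members were called without any 1 library, against 1.07% to 1.85% of all genes. By Dex in water mice, 2 members were called, against 4.42% of all genes. DESeq2 (4.57% of all genes), an LFC above 1 (3.27%), RLE factors, no filter and at least 10 counts in every library each gave 1. With edgeR's glmTreat against 0.8 the count was 0 (1.22%), and leaving out 1 library gave 0 to 2 (3.37% to 4.49%). The replicate block gave 0 (4.32% of all genes), with adjusted p-values of 0.0529 for Duoxa1 and 0.0622 for Duoxa2, and it changed no other call of a member. By Dex in ZnSO4 mice, 3 members were called, against 5.81% of all genes. A fit of only the groups compared gave 0, with adjusted p-values of 0.0548 to 0.112 on 3 mice against 3. With glmTreat the count was 0 (1.73% of all genes), and leaving out 1 library gave 1 to 3 (4.68% to 5.97%). For ZnSO4 alone against Dex alone, 5 were called, against 7.32% of all genes. At least 10 counts in every library, which removes Duox1 and Duoxa1 from the test, gave 3, and DESeq2 and no filter ended the call of Duox1. With glmTreat the count was 2 (2.21% of all genes), and leaving out 1 library gave 3 to 6 (6.12% to 7.48%). Without 1 library, ZnSO4 in Dex mice gave 3 to 4 (1.24% to 2.08% of all genes), both treatments against neither 4 to 5 (7.87% to 9.94%), and the interaction 0 (0%). In these comparisons every count stayed within 1.5 times the main one. Signs turned only for values that no fit called: the interaction of Duox1 (-0.028 with the replicate block, -0.31 to 0.34 without 1 library), and without 1 library Cyba by Dex in water mice (-0.15 to 0.10) and in ZnSO4 mice (-0.11 to 0.090), its interaction (-0.12 to 0.14), Duoxa1 by Dex in ZnSO4 mice (-0.11 to 0.76) and Nox1 by ZnSO4 in PBS mice (-0.093 to 0.43). The cause of these shifts was not tested. Duox1 could not be fitted under at least 10 counts, nor in most fits of only 2 groups, where the filter removed it; the interaction has no fit of only the groups compared. Depth limits Duox1 and Duoxa1, at 3 to 48 reads per library.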
